A study of Mus musculus with 24 samples.

Results

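The genes described here are 35 genes of mitosis and chromosome segregation, chosen by name from the gene symbols of the count table. All 35 were found among its 49315 genes, and all 35 passed the filter on low counts that left 17216 genes for testing. They encode cyclins and their kinase, mitotic kinases, the chromosomal passenger complex, the spindle assembly checkpoint, centromere proteins, chromosome and spindle proteins, cytokinesis proteins and partners of the anaphase-promoting complex. RNA was sequenced from mouse livers in 4 groups of 6 libraries. Tumour-bearing livers had been transduced with AKT and YAP1, a protein kinase and a transcriptional coactivator that together drive cholangiocarcinoma, which is bile duct cancer. Control livers bore no tumour and had received an empty transduction. Each genotype, wild type or Mdr2-/-, was studied in both conditions; Mdr2-/- mice lack the phospholipid transporter Abcb4 (also called Mdr2) and develop chronic bile duct injury, so that the Mdr2-/- controls are not healthy livers. The age of the mice and the promoter of the oncogenes are not stated in the labels. The tissue is whole tumour-bearing liver, so that tumour and surrounding liver were measured together.

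Mitotic genes are transcribed in a wave in late G2 and in M phase and are silent in resting cells. In resting cells the DREAM complex holds them off, and in dividing cells MuvB bound to the MYB protein Mybl2 and to Foxm1 turns them on through a promoter element called the CHR, often next to CCAAT boxes bound by NF-Y. Most hepatocytes and bile duct cells of an adult liver rest outside the cycle and re-enter it after injury or loss of tissue, so the RNA of these genes is scarce in an undisturbed liver. In RNA from bulk tissue, a change in the number of cells in mitosis and a change in RNA per cell cannot be told apart.

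Total counts per library were 20976459 to 30288385. Abcb4, the gene deleted in Mdr2-/- mice, was at 165 to 378 CPM (counts per 1000000 counts, here after TMM scaling) in the wild-type libraries and at 21.7 to 59.3 CPM in the Mdr2-/- libraries, so no library went against its genotype label. Hepatocyte and bile duct markers were present in every group. The summed CPM of 10 bile duct markers ranged in wild type from 68.0 to 140 (controls) and from 167 to 1390 (tumour-bearing). In Mdr2-/- mice the ranges were 83.9 to 347 (controls) and 1110 to 4020 (tumour-bearing). In a principal component analysis of all genes, wild-type tumour-bearing replicate 6 and Mdr2-/- tumour-bearing replicate 1 stood apart from their groups. The counts below are given without them where they change. Wild-type tumour-bearing replicate 3, which was kept in that fit, lay at the end of its group on the first component (36.4% of variance). It was at -40.99, and the other libraries of its group at -28.13 to 28.33. Whether libraries came from separate animals is not labelled; p-values therefore measure only the spread between the libraries at hand.

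Promoter windows from RefSeq (mouse assembly GRCm38.p6, 250 bases before to 50 bases after the start) were matched by symbol for 29 of the 35 genes; Aurkb, Ccna2, Foxm1, Incenp, Kif20a and Tpx2 were not matched. The windows were searched on both strands for the CHR (TTTGAA) and the CCAAT box (CCAAT), which can share a base where they abut. A CHR was found in 22 of the 29 genes (75.9%), against 20.2% of 27025 genes in the table. Within 50 bases of the start, 20 of the 29 genes (69.0%) had a CHR, against 5.72% of all genes. A CCAAT box was found in 24 genes (82.8%, against 41.1%), and 17 genes (58.6%, against 13.3%) had at least 2. Both motifs stood in the window of 20 genes (69.0%, against 7.97%). These are matches of letters, a description of the windows and not evidence of binding. The 7 windows below run from 80 bases before the start to the first 20 transcribed bases, 5' to 3' on the gene's strand, with CHR and CCAAT letters on either strand in capitals. Ttk and Cdc20 are shown for their wide range between groups, Cdk1, Top2a and Ccnb2 as the mitotic kinase, a chromosome protein and a cyclin, and Ube2c and Nusap1 because their RNA did not pass the test in any comparison.
Ttk, chr9:83834609-83834708 (+): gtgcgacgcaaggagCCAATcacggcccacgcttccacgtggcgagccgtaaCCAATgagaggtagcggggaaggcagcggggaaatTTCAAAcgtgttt
Cdc20, chr4:118437324-118437423 (-): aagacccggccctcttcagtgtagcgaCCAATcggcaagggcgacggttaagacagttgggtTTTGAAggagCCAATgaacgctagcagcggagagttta
Cdk1, chr10:69352893-69352992 (-): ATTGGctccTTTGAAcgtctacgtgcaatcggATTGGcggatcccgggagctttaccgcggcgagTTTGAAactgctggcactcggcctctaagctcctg
Top2a, chr11:99024170-99024269 (-): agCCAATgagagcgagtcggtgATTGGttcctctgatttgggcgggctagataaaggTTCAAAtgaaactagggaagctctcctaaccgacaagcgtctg
Ccnb2, chr9:70421535-70421634 (-): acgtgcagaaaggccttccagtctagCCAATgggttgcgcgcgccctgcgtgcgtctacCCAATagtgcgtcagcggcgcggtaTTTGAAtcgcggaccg
Ube2c, chr2:164769849-164769948 (+): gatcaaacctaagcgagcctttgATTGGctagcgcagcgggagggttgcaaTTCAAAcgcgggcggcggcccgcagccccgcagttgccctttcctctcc
Nusap1, chr2:119618218-119618317 (+): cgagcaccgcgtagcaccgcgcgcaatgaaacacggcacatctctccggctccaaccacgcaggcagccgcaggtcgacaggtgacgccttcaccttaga

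**Figure D1:**
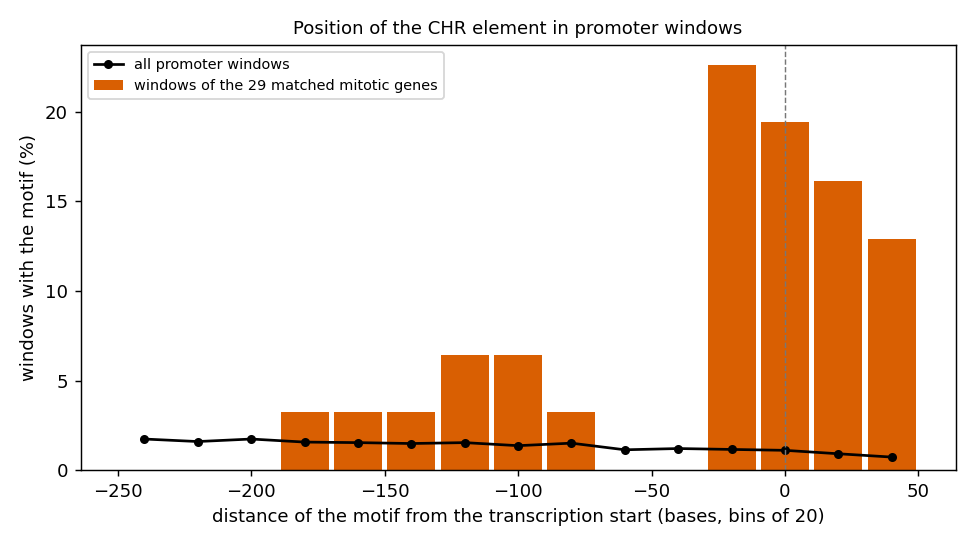
Share of promoter windows (%, y axis) with a CHR element by distance of its first base from the transcription start (bases, bins of 20, x axis), for the windows of the 29 matched mitotic genes (bars) and all windows of the table (line). The bin centred 20 bases before the start holds a CHR in 22.6% of mitotic windows and 1.16% of all windows; some genes have more than 1 window.

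The windows differ in where the elements lie. Ttk, Top2a and Cdc20 carry a single CHR and 2 CCAAT boxes each within the printed bases, and Cdk1 carries 2 of each. Within the printed bases Ccnb2 has a CHR next to the start and 2 CCAAT boxes upstream, and its full window holds a further CHR and CCAAT box. Ube2c, an enzyme that passes ubiquitin to the substrates of the anaphase-promoting complex, has both motifs, and the printed window of Nusap1, a microtubule-binding protein of the spindle, has neither.

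The 35 genes were expressed at low levels, and they were lowest in wild-type controls. By group median in CPM, 34 of the 35 were lowest in wild-type controls, the exception being Nusap1. The highest median lay in Mdr2-/- tumour-bearing livers for 25 genes, in Mdr2-/- controls for 9 and in wild-type controls for 1, Nusap1. For 32 genes the median of Mdr2-/- controls, which bear no tumour, lay above that of wild-type tumour-bearing livers; this pair of groups was not tested. On the authors' TPM, which correct for gene length and so allow a comparison between genes, Ube2c led in both control groups with means of 5.88 ± 1.85 in wild type and 9.38 ± 3.52 in Mdr2-/- (SD, n = 6). Ect2, the exchange factor that starts the cleavage furrow, led in tumour-bearing livers with 8.26 ± 3.60 TPM (wild type) and 11.3 ± 1.39 TPM (Mdr2-/-). Ttk, the kinase at the head of the spindle checkpoint, was last in wild-type controls with a mean of 0.0699 TPM, and Kif2c, a kinesin that takes microtubules apart, was last in both tumour-bearing groups with 0.439 and 0.939 TPM.

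The summed CPM of the 35 genes gives each library's position, with the most weight on abundant genes such as Ect2. In wild-type controls it was 69.0 at the lowest, 79.2 at the median and 103 at the highest. The wild-type tumour-bearing libraries ran from 113 through a median of 157 to 299, all above the controls. Mdr2-/- controls ran from 104 through 209 to 232, and Mdr2-/- tumour-bearing livers from 189 through 254 to 422. Single libraries lay far from their groups, and for nearly all genes at once. Wild-type tumour-bearing replicate 3 was the highest of its group for 33 of the 35 genes and Mdr2-/- tumour-bearing replicate 3 for 31. Mdr2-/- control replicate 1 was the lowest of its group for 32, and Mdr2-/- tumour-bearing replicate 1 for 27. The ratio of the highest to the lowest library of a group had a median over the genes of 3.56 (wild type) and 3.12 (Mdr2-/-) among tumour-bearing livers, against 2.59 and 2.74 among controls.

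**Figure D2:**
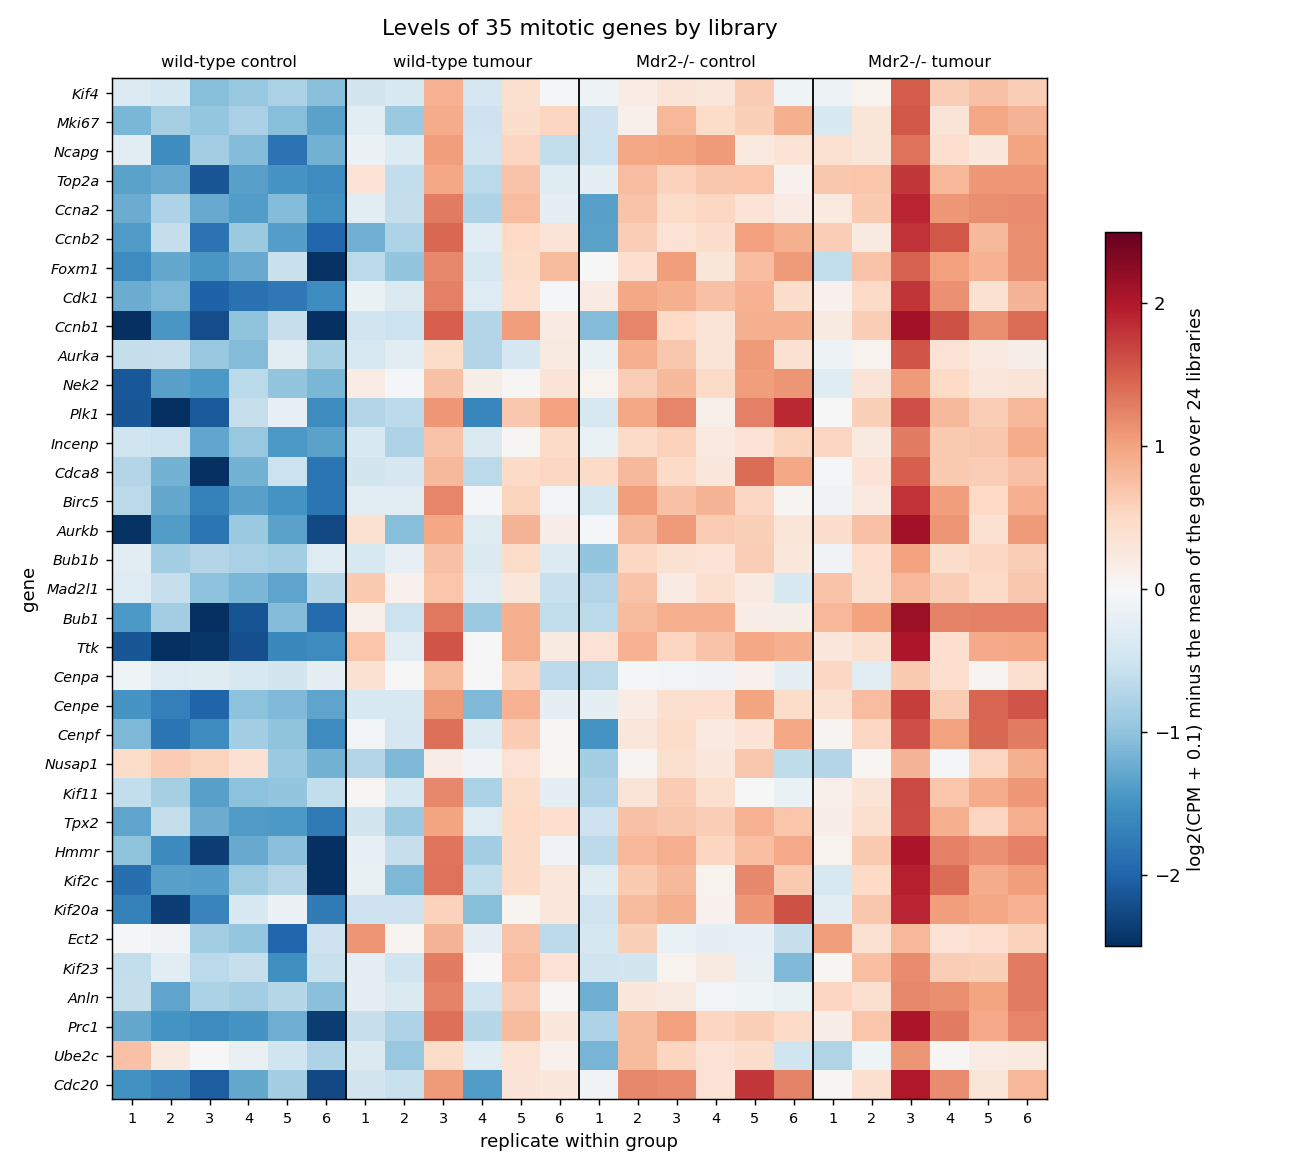
Level of the 35 genes (rows, by role) in each of the 24 libraries (columns, by group and replicate) as log2(CPM + 0.1) minus the gene's mean over all libraries; colours stop at 2.5 either side. Wild-type controls are low for nearly all genes, replicate 3 is the highest in both tumour-bearing groups, and Nusap1 and Ube2c differ from the other rows.

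The first comparison asked how tumour-bearing wild-type livers differ from wild-type controls. In the tumour-bearing livers 31 of the 35 genes rose and 0 fell in edgeR's quasi-likelihood test (Benjamini-Hochberg adjusted p under 0.05 over all genes tested, here called a change). Of all genes tested, 16.9% rose and 11.5% fell (28.4% in either direction). At an unadjusted p under 0.05, 33 genes were higher and 0 lower, and DESeq2 called 32 higher and 0 lower. Over all 17216 genes, DESeq2 called 5406 in either direction. The share of all genes at an unadjusted p under 0.05 is not given, here or in the comparisons below. Counts at that threshold therefore stand without a background, and the background for DESeq2 is not split by direction. The median log2 fold change of the 35 genes was 1.52, against 0.03 over all genes tested. The libraries of the groups did not overlap for 9 of the 35 genes, all higher in tumour-bearing livers, against 7.27% of all genes that were higher and 3.49% that were lower without overlap.

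Of the 4 chromosome genes all rose, led by Top2a, the topoisomerase that untangles sister chromatids. Top2a was at 2.88, 4.82 and 5.42 CPM (lowest, median and highest library) in wild-type controls and at 8.18, 13.6 and 25.8 CPM in tumour-bearing livers. Every tumour-bearing library lay above every control, and the log2 fold change was 1.74 ± 0.27 (SE; edgeR adjusted p = 3.66e-05). Mki67, the protein that coats mitotic chromosomes and a common label of cycling cells, rose by 1.20 ± 0.30 on the log2 scale (edgeR adjusted p = 0.00439). All 5 genes of the cyclin group rose, by 1.47 (Ccna2) to 2.08 (Ccnb1). In that group Ccnb2, a B-type cyclin and the group's most abundant gene per length, ran from 0.545 through 0.864 to 1.59 CPM in controls and from 1.01 through 2.53 to 6.79 CPM in tumour-bearing livers. These ranges overlapped, and the change was 1.65 ± 0.43 (edgeR adjusted p = 0.00537). Cdk1, the kinase that B-type cyclins activate, had no overlap and rose by 1.91 ± 0.30 (edgeR adjusted p = 5.26e-05).

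Among the 3 kinases of mitotic entry and the centrosome, 2 rose. Nek2, which splits the centrosomes, went from 0.733, 1.43 and 2.17 CPM in controls to 3.44, 3.99 and 5.94 CPM, without overlap (1.52 ± 0.24, edgeR adjusted p = 4.36e-05). Plk1, which acts from mitotic entry to cytokinesis, rested on 1 to 17 counts per control library. It was at 0.0548, 0.178 and 0.741 CPM in controls and at 0.217, 0.988 and 1.97 CPM in tumour-bearing livers, and rose by 1.78 ± 0.55 (edgeR adjusted p = 0.0175). The tumour-bearing values overlap the controls, and without tumour-bearing replicate 3 the value was 1.52 (edgeR adjusted p = 0.059). Aurka, the kinase of the spindle poles, did not pass the test: its CPM were 1.28, 1.69 and 2.36 in controls and 1.64, 2.23 and 3.91 in tumour-bearing livers (0.59 ± 0.29, edgeR adjusted p = 0.124).

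All 4 members of the chromosomal passenger complex, which corrects faulty attachments of chromosomes, rose. Its kinase Aurkb went from 0.183, 0.419 and 0.724 CPM in controls to 0.653, 1.80 and 2.96 CPM, a change of 2.12 ± 0.39 (edgeR adjusted p = 0.000247). A single tumour-bearing library, replicate 2, lay below the highest control. Incenp, the scaffold of the complex, was at 1.09, 1.39 and 2.20 CPM in controls and 1.79, 2.82 and 5.16 CPM in tumour-bearing livers (1.06 ± 0.25, edgeR adjusted p = 0.00264). All 4 genes of the spindle assembly checkpoint rose too. Ttk had the largest change of the 35 genes, from 0.110, 0.177 and 0.318 CPM (2 to 7 counts per library) to 0.928, 1.62 and 3.60 CPM. Every tumour-bearing library lay above every control, at 3.15 ± 0.40 (edgeR adjusted p = 2.35e-06). Mad2l1, which binds Cdc20 until all chromosomes are attached, went from 5.06, 7.03 and 10.3 CPM to 8.69, 14.7 and 20.8 CPM (1.04 ± 0.23, edgeR adjusted p = 0.00133).

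The 3 centromere genes rose. Cenpa, the histone variant that marks the centromere, changed least of the genes that passed: its CPM were 4.58, 5.11 and 5.86 in controls and 4.0, 7.39 and 11.0 in tumour-bearing livers (0.56 ± 0.20, edgeR adjusted p = 0.0321). Cenpe, a kinesin of the kinetochore, and Cenpf rose by 1.67 ± 0.34 and 1.70 ± 0.36 (edgeR adjusted p = 0.000752 and 0.00105). Of 5 spindle genes 4 rose, by 1.12 (Kif11, the motor that pushes the poles apart) to 1.94 (Kif2c). The exception was Nusap1, at 3.09, 9.53 and 11.0 CPM in controls and 3.20, 6.99 and 9.17 CPM in tumour-bearing livers (-0.29 ± 0.34, edgeR adjusted p = 0.552). Among the 5 genes of the central spindle and of cytokinesis 4 rose. Anln, which links actin and myosin in the cleavage furrow, went from 2.36, 3.34 and 3.97 CPM to 4.24, 5.63 and 14.3 CPM without overlap (1.17 ± 0.27, edgeR adjusted p = 0.00231).

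Kif23, the kinesin of the centralspindlin complex, went from 0.741, 1.5 and 1.92 CPM in wild-type controls to 1.62, 2.65 and 5.77 CPM in tumour-bearing livers (1.12 ± 0.30, edgeR adjusted p = 0.00695). Ect2 went from 4.01, 9.98 and 15.7 CPM to 10.3, 21.8 and 34.8 CPM, with overlap (1.07 ± 0.29, edgeR adjusted p = 0.00733). Kif20a, a kinesin of the central spindle, did not pass the test at 1.06 ± 0.42 (edgeR adjusted p = 0.0587). Of the partners of the anaphase-promoting complex, Cdc20, its activator in mitosis, rose by 1.74 ± 0.43 (edgeR adjusted p = 0.00363). Ube2c was at 5.45, 8.84 and 15.7 CPM in controls and 4.85, 8.95 and 13.0 CPM in tumour-bearing livers, with ranges that overlapped (-0.03 ± 0.32, edgeR adjusted p = 0.956). By the GENCODE annotation of the older assembly, 11 of the 35 genes overlap exons of an opposite-strand gene. Ube2c overlaps Tnnc2 (6536 and 1147 counts over the 24 libraries) and Nusap1 overlaps Oip5 (5011 and 1080). Among genes that rose here, Cdc20 overlaps Elovl1 (2014 and 22685), Kif4 overlaps Pdzd11 (1424 and 9128) and Ncapg overlaps Lcorl (1843 and 34840). Prc1, which also rose, overlaps Rccd1 with fewer counts (3028 and 863). Foxm1 and Top2a overlap another gene on the same strand only. The counting is not stated to use strand, so such reads cannot be told apart. The part of overlap in the results was not tested.

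**Figure D3:**
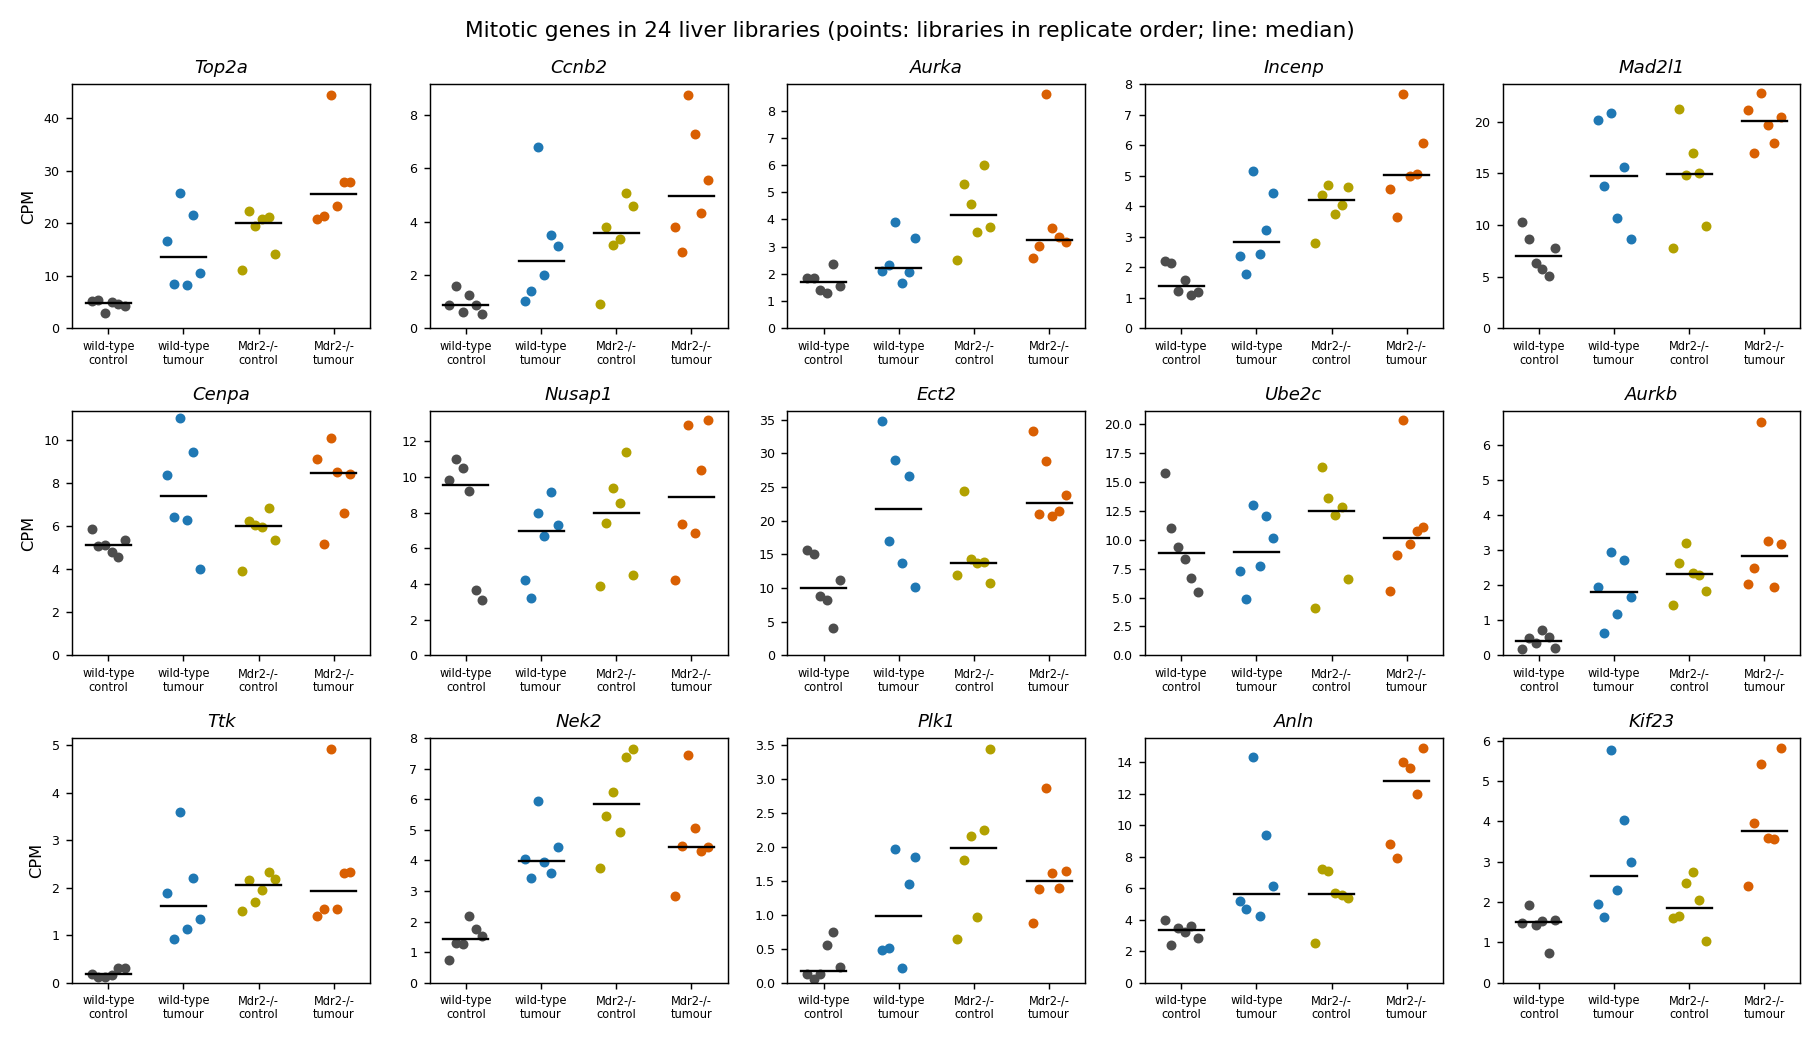
CPM (y axes, linear, from 0) of 15 of the 35 genes in the 4 groups; each point is a library and each line a group median. Ttk and Nek2 are low in all 6 wild-type controls and higher in all libraries of the other groups, Anln is highest in Mdr2-/- tumour-bearing livers, and the groups overlap for Nusap1 and Ube2c.

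The wild-type tumour-bearing livers also differed among themselves in bile duct markers. Replicates 3 and 5 had bile duct sums of 1390 and 1340 CPM and the 2 highest sums of the 35 genes, 299 and 222 CPM. Replicates 2 and 4 had bile duct sums of 339 and 219 CPM and the lowest sums of the 35 genes, 113 and 114 CPM. By these sums the other libraries did not keep this order: replicate 1 had the lowest bile duct sum, 167 CPM, with the third highest sum of the 35 genes, 164 CPM, and replicate 6 had 672 CPM and 151 CPM. In replicate 1 Ect2 (34.8 CPM) and Mad2l1 (20.2 CPM) made up much of the sum. These genes weighed on the other sums too, at 17.0 and 13.8 CPM in replicate 2 and 29.1 and 20.8 CPM in replicate 3. By the median rank of the 35 genes within the group, with 1 the highest, replicate 6 was at 3, replicate 1 at 4 and replicates 2 and 4 at 5. Of the 10 bile duct markers 7 rose in this comparison, as did 5 of 8 stellate cell markers and 4 of 9 macrophage markers, while 6 of 10 hepatocyte markers fell. The part of these markers in the result was not tested. The call of Kif4 was lost without tumour-bearing replicate 3 (0.67, edgeR adjusted p = 0.0845). Those of Bub1b (0.52 to 0.69) and Cenpa (0.43 to 0.55) were lost without tumour-bearing replicate 3 or 5, control replicate 4 or 5, for Bub1b also control replicate 2 or 3 or Mdr2-/- tumour-bearing replicate 6, and for Cenpa also tumour-bearing replicate 1.

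In Mdr2-/- mice the same comparison gave few changes among these genes. Tumour-bearing Mdr2-/- livers differed from Mdr2-/- controls in 5 of the 35 genes (14.3%), all higher, while 17.9% of all genes tested rose and 17.0% fell. The share among the 35 genes was thus near that of all genes. At an unadjusted p under 0.05, 11 genes were higher and 0 lower, and DESeq2 called 9 higher and 0 lower. Over all 17216 genes, DESeq2 called 6659 in either direction. The median log2 fold change was 0.47, against 0.04 over all genes. The groups did not overlap for 1 gene, Anln, against 7.38% of all genes that were higher and 7.62% that were lower without overlap.

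Of the 5 genes that rose, 3 act in the central spindle and in cytokinesis. Kif20a and Prc1 of the same role group did not pass, at 0.20 ± 0.38 (edgeR adjusted p = 0.707) and 0.65 ± 0.35 (0.142). Anln went from 2.51, 5.63 and 7.22 CPM in Mdr2-/- controls to 7.93, 12.8 and 14.9 CPM in tumour-bearing livers, with every tumour-bearing library above every control (1.09 ± 0.26, edgeR adjusted p = 0.00377). Kif23 went from 1.02, 1.85 and 2.74 CPM to 2.39, 3.77 and 5.81 CPM, and 5 of the 6 tumour-bearing libraries lay above all controls (1.10 ± 0.29, edgeR adjusted p = 0.00667). Both genes serve the last step of division, the separation of the daughter cells. Ect2 went from 10.8, 13.8 and 24.4 CPM to 20.7, 22.7 and 33.4 CPM (0.75 ± 0.29, edgeR adjusted p = 0.0443), and the overlap came from control replicate 2 alone. The other genes that rose were Ccna2, a cyclin of S and G2 phase, at 0.86 ± 0.33 (edgeR adjusted p = 0.0449) and Kif11 at 0.77 ± 0.29 (edgeR adjusted p = 0.0444). Bub1 of the spindle assembly checkpoint (0.92 ± 0.37, edgeR adjusted p = 0.0555), Cenpf (0.80 ± 0.33, 0.0612) and Cenpe (0.78 ± 0.31, 0.0518) had values above that of Ect2 but did not pass.

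The kinases did not pass the test, and Nek2 and Plk1 had the lowest log2 fold changes of the 35 genes. Nek2 was at 3.75, 5.85 and 7.66 CPM in Mdr2-/- controls and 2.84, 4.45 and 7.45 CPM in tumour-bearing livers (-0.31 ± 0.22, edgeR adjusted p = 0.27). Plk1 was at 0.638, 1.99 and 3.44 CPM and at 0.884, 1.5 and 2.87 CPM (-0.21 ± 0.46, edgeR adjusted p = 0.751). Aurka, at 2.51, 4.15 and 6.01 CPM in controls and 2.58, 3.26 and 8.62 CPM in tumour-bearing livers, differed by -0.07 ± 0.27 (edgeR adjusted p = 0.854). In all 3 kinases the medians were lower in tumour-bearing livers and the ranges overlapped.

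The remaining named genes did not pass either. Top2a was at 11.2, 20.1 and 22.3 CPM in Mdr2-/- controls and 20.9, 25.6 and 44.5 CPM in tumour-bearing livers (0.60 ± 0.25, edgeR adjusted p = 0.0648). Ttk was at 1.5, 2.05 and 2.32 CPM and at 1.40, 1.92 and 4.91 CPM (0.25 ± 0.31, edgeR adjusted p = 0.545). Its highest value came from replicate 3, and the other 5 tumour-bearing libraries reached at most 2.32 CPM. Aurkb (0.51 ± 0.33, edgeR adjusted p = 0.221), Incenp (0.40 ± 0.23, 0.18), Mad2l1 (0.48 ± 0.22, 0.0923), Cenpa (0.48 ± 0.19, 0.0554), Ccnb2 (0.64 ± 0.39, 0.189), Nusap1 (0.28 ± 0.33, 0.515) and Ube2c (0.01 ± 0.31, 0.983) all overlapped between the groups.

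The share of counts in 7 nuclear non-coding RNAs such as Malat1 moved with this comparison: Mdr2-/- tumour-bearing libraries held 4.60% to 7.95% and their controls 1.74% to 4.29%, without overlap. In wild type the shares overlapped, with 2.30% to 6.51% in tumour-bearing and 2.91% to 5.42% in control libraries. With this share as a covariate, a fit added after the data were seen, the calls of all 5 genes were lost: Anln was at 0.82 (edgeR adjusted p = 0.17), Kif23 at 0.86 (0.189), Ccna2 at 0.65 (0.458), Kif11 at 0.45 (0.562) and Ect2 at -0.07 (0.937). Over all genes tested, the changes in the Mdr2-/- comparison went from 5995 to 960 with the covariate. Because the share does not overlap between these groups, it and the tumour effect can hardly be told apart. Without the covariate, the calls of Anln and Kif23 held without any single library. Those of Ccna2 (0.64 to 0.90), Kif11 (0.54 to 0.80) and Ect2 (0.64 to 0.78) were each lost without any of 10 or 11 libraries, among them Mdr2-/- tumour-bearing replicates 3, 5 and 6 and Mdr2-/- control replicates 1, 5 and 6 for all 3 genes. The number of genes that rose was 2 without Mdr2-/- tumour-bearing replicate 3, 5 or 6 or control replicate 1, 3 without Mdr2-/- control replicate 3, 5 or 6 or wild-type control replicate 3 or 4, 8 without wild-type tumour-bearing replicate 6 and 10 without wild-type tumour-bearing replicate 3. It was 8 without both libraries that stood apart. Among Mdr2-/- tumour-bearing livers, replicate 3 had the highest sum of the 35 genes, 422 CPM, with a bile duct sum of 1920 CPM. Replicate 6 had the highest bile duct sum, 4020 CPM, with 284 CPM for the 35 genes. Replicate 2 had 2440 and 202 CPM, and replicate 1 was lowest in both, at 1110 and 189 CPM. Of bile duct markers 6 of 10 rose in this comparison, while 4 of 9 macrophage markers and 6 of 10 hepatocyte markers fell. The part of these markers in the result was not tested.

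**Figure D4:**
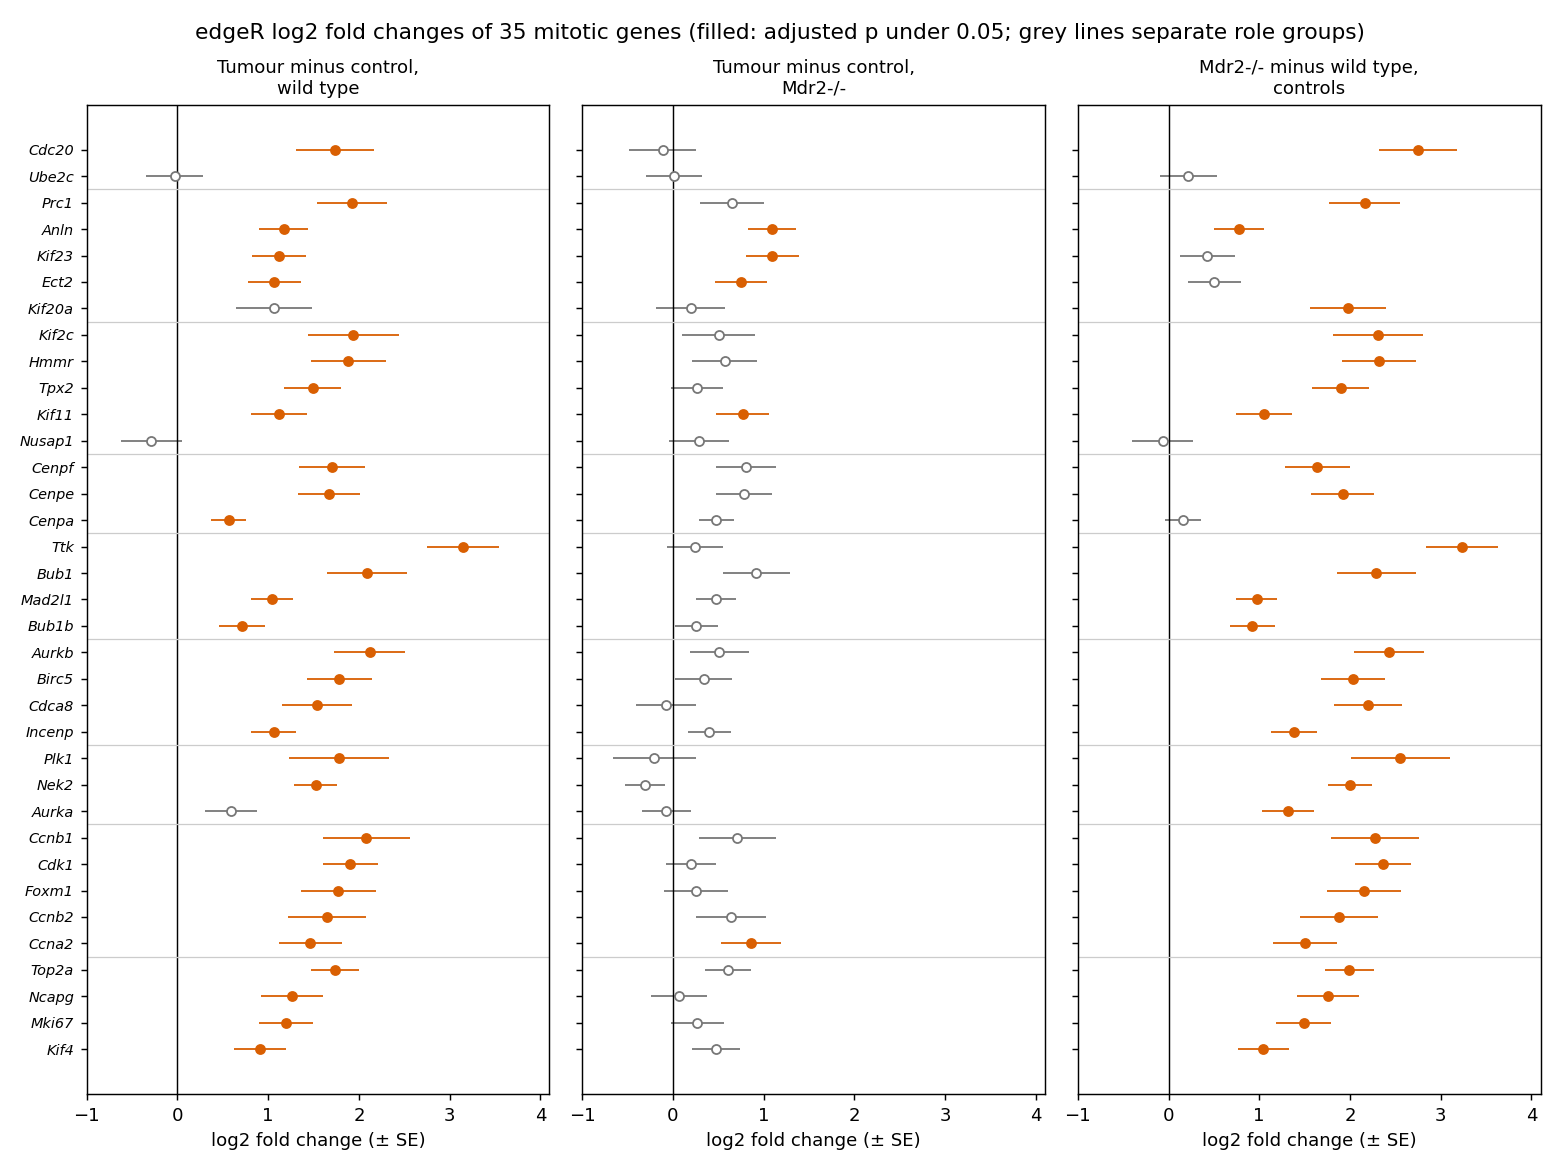
edgeR log2 fold changes (x axes, bars are SE) of the 35 genes, by role, for tumour-bearing against control livers in wild type and in Mdr2-/- mice and for Mdr2-/- against wild-type controls; filled points passed an adjusted p of 0.05. Filled points number 31, 5 and 30 in the 3 panels, and wild-type controls enter both the first and the last.

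The difference between the tumour effects of the genotypes was tested as an interaction (Mdr2-/- effect minus wild-type effect). It passed for 11 of the 35 genes (31.4%), all with the smaller effect in Mdr2-/- mice and 0 with the larger, against 13.4% of all genes tested with a lower and 11.9% with a higher effect. At an unadjusted p under 0.05, 17 genes were lower and 0 higher, and DESeq2 called 13 and 0. Over all 17216 genes, DESeq2 called 4977 in either direction. The largest difference was in Ttk, -2.90 ± 0.50 (edgeR adjusted p = 0.000377). The kinases Plk1 (-1.98 ± 0.72, 0.0443) and Nek2 (-1.83 ± 0.33, 0.000455), Cdc20 (-1.85 ± 0.57, 0.0199) and Cdk1 (-1.71 ± 0.41, 0.00469) followed. Of the chromosomal passenger complex 3 of 4 genes differed, namely Cdca8, Aurkb and Birc5, at -1.61, -1.61 and -1.45. Foxm1, the transcription factor of the G2 and M phase genes, differed by -1.52 ± 0.54 (edgeR adjusted p = 0.0418).

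The genes of the central spindle and of cytokinesis did not pass. Their values were -0.02 ± 0.40 for Kif23 (edgeR adjusted p = 0.973), -0.08 ± 0.37 for Anln (0.893), -0.32 ± 0.40 for Ect2 (0.576), -0.87 ± 0.56 for Kif20a (0.254) and -1.27 ± 0.52 for Prc1 (0.0702), which bundles the microtubules of the central spindle. For Kif23, Anln and Ect2 the errors leave room for a difference of either sign. The calls of Aurkb, Cdc20, Cdca8, Cdk1, Nek2 and Ttk held without any single library, and those of Top2a (-0.92) and Birc5 (-1.15) were lost without wild-type tumour-bearing replicate 3. The calls of Foxm1, Plk1 and Tpx2 were lost without any of 14, 15 and 10 libraries, with values from -1.22 to -1.54, from -1.73 to -1.98 and from -0.99 to -1.21. In all, 6 genes passed without wild-type tumour-bearing replicate 3, 17 without Mdr2-/- tumour-bearing replicate 3 and 6 without both libraries that stood apart. With the nuclear RNA share as a covariate 8 passed, and the calls of Cdc20, Cdca8, Foxm1, Plk1 and Tpx2 were lost.

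Most of these genes also differed between the genotypes in livers without a tumour. In Mdr2-/- controls 30 of the 35 genes were higher than in wild-type controls and 0 were lower, against 26.2% of all genes higher and 24.3% lower (50.5% in either direction). At an unadjusted p under 0.05 and in DESeq2, 30 genes were higher and 0 lower. Over all 17216 genes, DESeq2 called 9033 in either direction. The median log2 fold change was 1.90, against 0.03 over all genes. The libraries did not overlap for 19 of the 35 genes, all higher in Mdr2-/-, against 13.7% of all genes that were higher and 10.6% that were lower without overlap. This comparison and the wild-type tumour effect share the 6 wild-type controls, so values that are low there enter both.

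Ttk showed the largest value, 3.23 ± 0.40 (edgeR adjusted p = 6.17e-07): the lowest Mdr2-/- control, at 1.5 CPM, was above the highest wild-type control, at 0.318 CPM. Cdc20 went from 0.363, 0.637 and 1.13 CPM to 1.99, 4.95 and 7.45 CPM without overlap (2.75 ± 0.43, edgeR adjusted p = 1.62e-05). Plk1 rose by 2.56 ± 0.54 (edgeR adjusted p = 0.000478), with overlap. Aurkb rose by 2.43 ± 0.39 and Nek2 by 2.00 ± 0.24 (edgeR adjusted p = 2.11e-05 and 4.79e-07), both without overlap. Aurka, which did not pass in either tumour comparison, was higher in every Mdr2-/- control than in every wild-type control (1.32 ± 0.28, edgeR adjusted p = 0.000526). Top2a (1.99 ± 0.27), Incenp (1.38 ± 0.25), Ccnb2 (1.88 ± 0.43) and Mad2l1 (0.97 ± 0.23) rose as well, the first pair without overlap.

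The 5 genes that did not pass were Kif23 (0.43 ± 0.30, edgeR adjusted p = 0.246), Ect2 (0.51 ± 0.29, 0.145), Cenpa (0.16 ± 0.20, 0.51), Ube2c (0.22 ± 0.32, 0.582) and Nusap1 (-0.06 ± 0.33, 0.886). Anln passed with the smallest change of the 30, 0.78 ± 0.27 (edgeR adjusted p = 0.0203). Kif23, Ect2 and Anln are also the cytokinesis genes that rose in tumour-bearing Mdr2-/- livers, a comparison that shares the Mdr2-/- controls with this one. All 30 calls held without any single library and without both libraries that stood apart. Of bile duct markers 9 of 10, of macrophage markers 7 of 9 and of stellate cell markers 5 of 8 were higher in Mdr2-/- controls, and 5 of 10 hepatocyte markers were lower; their part in the result was not tested. Among the Mdr2-/- controls, replicates 2, 5 and 6 had bile duct sums of 115, 105 and 83.9 CPM, within the range of the wild-type controls, and sums of the 35 genes of 232, 222 and 187 CPM. Replicates 1, 3 and 4 had bile duct sums of 165, 191 and 347 CPM, above that range. Their sums of the 35 genes were 104, 220 and 198 CPM, the first near the highest wild-type control, replicate 1, at 103 CPM. Abundant genes weigh on these sums: Ect2 and Ube2c were each at 15.7 CPM in that wild-type control. In Mdr2-/- control replicate 1 they were at 11.9 and 4.13 CPM. For the 19 genes without overlap, Mdr2-/- control replicate 1 lay above every wild-type control by definition, for example Cdk1 at 4.8 against at most 1.86 CPM. The other 16 genes overlapped between the control groups. Among these, Mdr2-/- control replicate 1 was at 2.40 CPM for Ccna2 and 2.51 CPM for Anln. The highest wild-type controls were at 3.67 and 3.97 CPM.

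Between tumour-bearing livers of the genotypes few of these genes differed. Top2a (0.86 ± 0.26, edgeR adjusted p = 0.029), Cenpe (1.03 ± 0.31, 0.0327) and Incenp (0.72 ± 0.24, 0.0491) were higher in Mdr2-/- livers and 0 genes were lower, so 8.57% of the 35 genes were higher against 7.13% of all genes tested. At an unadjusted p under 0.05, 20 genes were higher and 0 lower, a count without a background share of all genes. DESeq2 called 6 and 0. Over all 17216 genes, DESeq2 called 2503 in either direction. All 35 values were positive, with a median of 0.66 against -0.02 over all genes, and the libraries overlapped for all 35 genes, whereas 2.30% of all genes were higher and 1.39% lower without overlap. The number that passed was 20 without wild-type tumour-bearing replicate 3, 7 without Mdr2-/- tumour-bearing replicate 1 and 5 without Mdr2-/- control replicate 1. It was 1 without Mdr2-/- tumour-bearing replicate 5 or wild-type tumour-bearing replicate 1 or 6, and 0 without Mdr2-/- tumour-bearing replicate 3 or 6 or wild-type tumour-bearing replicate 2 or 4. Bile duct markers were higher in Mdr2-/- tumour-bearing livers for 8 of 10 genes, T and NK cell markers for 6 of 9 and stellate cell markers for 3 of 8. Hepatocyte markers were lower for 5 of 10 genes and endothelial cell markers for 5 of 7. The part of these markers in the result was not tested.

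Other genes of the same pathway were taken from lists. Of 65 tested of 66 other mitotic genes, 47 rose in tumour-bearing wild-type livers in edgeR's test, against 16.9% of all genes. Without overlap, 26 were higher, against 7.27% of all genes. Psrc1, a microtubule-binding protein of the spindle, rose most: it was at 0.00 to 0.183 CPM in wild-type controls and 0.390 to 1.73 CPM in tumour-bearing livers (3.19 ± 0.53, edgeR adjusted p = 8.6e-05, a size that depends on the prior count because a control library was at 0). In Mdr2-/- mice 10 of the 65 rose and 2 fell, where 17.9% of all genes rose and 17.0% fell, so the rises were no more frequent than over all genes. Pimreg rose most, from 0.134 to 0.434 CPM in controls to 0.866 to 2.17 CPM without overlap (2.68 ± 0.49, edgeR adjusted p = 0.000384). Cenpm, a protein of the inner kinetochore, fell from 9.11 to 17.3 CPM to 3.46 to 9.29 CPM (-1.09 ± 0.29, edgeR adjusted p = 0.00692). The difference of the effects passed for 30 of the 65, all lower in Mdr2-/- mice, against 13.4% of all genes. In controls 47 were higher in Mdr2-/- mice, against 26.2% of all genes.

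The genes of DNA replication, the step before mitosis, were set beside the mitotic genes. In wild-type tumour-bearing livers 25 of 29 replication genes rose in edgeR's test (16.9% of all genes), with a median of 1.02. Uhrf1, which carries DNA methylation through replication, went from 0.775 to 1.65 CPM in controls to 5.19 to 14.9 CPM (2.83 ± 0.35, edgeR adjusted p = 1.79e-06). In Mdr2-/- mice 15 of the 29 fell in tumour-bearing livers (17.0% of all genes), with a median of -0.55, whereas the 35 mitotic genes had a median of 0.47 there. Chaf1a, a subunit of the factor that places histones on new DNA, fell from 2.67 to 8.89 CPM to 1.29 to 3.14 CPM (-1.30 ± 0.32, edgeR adjusted p = 0.00431).

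The ratio of the summed CPM of the 35 mitotic genes to that of the 29 replication genes was 0.247 to 0.369 in the controls and 0.311 to 0.642 in the tumour-bearing livers of wild-type mice. Among Mdr2-/- libraries, controls spanned 0.248 to 0.609 with a median of 0.381, and tumour-bearing livers 0.475 to 0.956 with a median of 0.755. Replication sums spanned 361 to 668 CPM in these controls and 324 to 441 CPM in these tumour-bearing livers, and sums of the mitotic genes 104 to 232 and 189 to 422 CPM. Both ratio and sums overlapped between the Mdr2-/- groups, and no test was made of them, because the genes were chosen with results known.

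**Figure D5:**
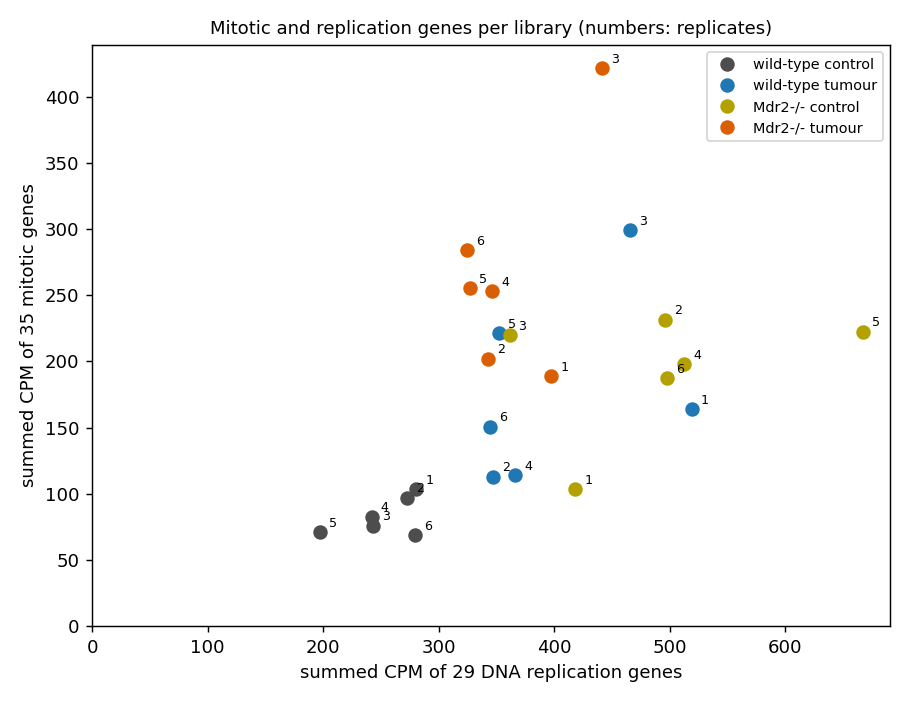
Summed CPM of the 35 mitotic genes (y axis) against that of 29 DNA replication genes (x axis); each point is a library, coloured by group and numbered by replicate. Wild-type controls lie lowest on both axes, and Mdr2-/- controls reach further right (up to 668 CPM) than Mdr2-/- tumour-bearing livers (up to 441 CPM), which reach higher (up to 422 CPM against 232 CPM).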

How the data were processed

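Liver RNA was depleted of ribosomal RNA and sequenced in paired-end mode in 24 libraries, per the labels' protocols. The authors deposited raw counts per gene, and TPM values, which correct for gene length. The submitters' processing notes name the build mm39 and DESeq2; aligner, counter and annotation: not given in the sources used here. Strand use is not stated. Treatment labels put the 24 libraries in 4 groups of 6; replicate numbers follow accession order and pair nothing. No replicate pair (60 pairs) was within sampling noise.

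The test on counts was that of edgeR 4.0.16 in R 4.3.3 (filterByExpr with a minimum count of 10, TMM factors, robust glmQLFit, 2-sided glmQLFTest) in 1 model of all 24 libraries, with Benjamini-Hochberg adjustment over 17216 genes and a threshold of 0.05. The 174 genes without a symbol were kept in the fit and belong to no list. The biological coefficient of variation was 0.272. Tables were joined in Python 3.11.15 with pandas 2.3.3 and numpy 2.4.6. Simulated counts for the wild-type tumour comparison (16938 genes) gave 76 of 100 genes changed 2-fold, 100 of 100 changed 4-fold and 9 false calls. The changed genes had a mean above 1 CPM, and all genes were given the same dispersion. These rates therefore do not cover genes with lower counts or a wider spread. The members, lists and tests were chosen with earlier results of these data known. Values by library are given for the gene of highest mean TPM in each of 9 role groups and for the 2 genes with the largest and the 2 with the smallest change in each tumour comparison; of other lists, for the called gene with the largest rise and fall in each tumour comparison. Cdk1, Cdc20, Mki67, Foxm1, Prc1, Kif20a and other genes named with values outside that rule were chosen after their values were seen.

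Alternatives to TMM were upper-quartile factors, total library size and the size factors of DESeq2. Others were no filter or a stricter one (1 CPM in 6 libraries); DESeq2 1.42.0; limma 3.58.1 with voom and quality weights or on log2(TPM + 0.1) and log2(TPM + 1); fits of only the 12 libraries compared; a covariate for sample titles with a number under 2000; and each library left out. Added after seeing the data were a fit without 2 libraries that stood apart and one with a covariate for the share of counts in 7 nuclear non-coding RNAs.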

Additional observations from a re-analysis of the deposited data

Results flagged for a closer look

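In each group of 6 libraries, the highest or lowest value of each gene was compared with its nearest neighbour by Dixon's criterion on log2(CPM + 0.1). Of 140 sets of 6 values, 15 held a value that lay apart, where chance alone gives about 1 in 20. Of these, 8 came from Mdr2-/- control replicate 1, which was low for Ccna2 (2.40 CPM, nearest library 7.34), Tpx2 (2.40, nearest 5.34), Anln (2.51, nearest 5.34), Prc1 (1.88, nearest 4.60), Bub1b (1.54, nearest 3.79), Hmmr (1.35, nearest 3.21), Cenpf (1.05, nearest 3.77) and Ccnb2 (0.901, nearest 3.14). Mdr2-/- tumour-bearing replicate 3 was high for Aurka (8.62 CPM, nearest 3.68) and Bub1 (7.02 CPM, nearest 3.72). Mdr2-/- tumour-bearing replicate 1 was low for Foxm1 (0.921 CPM, nearest 2.47), and Mdr2-/- control replicate 2 was high for Ect2 (24.4 CPM, nearest 14.3). In wild-type controls, replicate 3 was low for Top2a (2.88 CPM, nearest 4.32), replicate 5 for Kif23 (0.741 CPM, nearest 1.42) and replicate 6 for Prc1 (0.545 CPM, nearest 1.03).

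For 11 genes the tumour effect differed between the genotypes by the interaction test of edgeR, and in all of them it was lower in Mdr2-/- mice. The differences on the log2 scale were -2.90 for Ttk (adjusted p = 0.000377), -1.98 for Plk1 (0.0443), -1.85 for Cdc20 (0.0199), -1.83 for Nek2 (0.000455), -1.71 for Cdk1 (0.00469), -1.61 for Aurkb (0.0233), -1.61 for Cdca8 (0.0224), -1.52 for Foxm1 (0.0418), -1.45 for Birc5 (0.0275), -1.23 for Tpx2 (0.0367) and -1.13 for Top2a (0.0263).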

How the results depend on the processing

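The number of the 35 genes called in tumour-bearing wild-type livers (31) and between controls (30) stayed within 26 to 33 and 30 to 32 in all alternatives run; 24 of the 31 calls and all 30 of the other held in each of them. In Mdr2-/- mice the number (5, all higher) was 12 with total library size, 11 on log2(TPM + 1), 10 with upper-quartile factors, 9 with DESeq2 and with only the 12 libraries compared, 8 with voom, with the stricter filter and without the 2 libraries that stood apart, 2 with no filter and 0 with the nuclear RNA covariate, where Ect2 was at -0.07 (adjusted p = 0.937). For the difference of effects (11, all lower) it was 7 on log2(TPM + 0.1) and with the title number covariate, 6 without the 2 libraries that stood apart, 4 with voom and 2 on log2(TPM + 1). Between tumour-bearing livers (3, all higher) it was 23 with voom, 20 on log2(TPM + 1), 16 on log2(TPM + 0.1), 10 with total library size, 6 with DESeq2, 1 with the title number covariate and 0 with only the 12 libraries. The calls over all genes moved there too, from 1917 in edgeR's test to 4120 with voom, 3306 on log2(TPM + 1) and 3069 on log2(TPM + 0.1). They were 2927 with total library size, 2503 with DESeq2, 2751 without wild-type tumour-bearing replicate 3 and 1364 with only the 12 libraries. Without each library in turn the numbers were 27 to 32, 2 to 10, 6 to 17, 30 to 30 and 0 to 20 for the comparisons in the order of the report's tests, wild-type, Mdr2-/-, difference, controls and tumour-bearing. Calls held in every alternative for 0 of 5 genes in Mdr2-/- mice, 2 of 11 for the difference and 0 of 3 between tumour-bearing livers; the cause was not tested. Total library size moved the median of all genes by 0.30 in wild type, 0.25 in Mdr2-/- mice, 0.30 between controls and 0.25 between tumour-bearing livers, and log2(TPM + 1) by 0.25, 0.10, 0.41 and 0.25, so part of the higher values there is shared by all genes. No paired analysis was possible because replicate numbers follow accession order and pair no samples. The title number lay at 2000 or above in all wild-type tumour-bearing libraries and below in 5 of the 6 wild-type controls, so the 2 can hardly be told apart. Several genes rest on few counts in wild-type controls (1 to 17 for Plk1, 2 to 7 for Ttk), which limits their fold changes.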

Other observations

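Regulators of the mitotic promoters were counted in the same way. Of 19 genes of the DREAM and MuvB complexes and the E2F family, 4 rose and 3 fell in tumour-bearing wild-type livers in edgeR's test, where 16.9% of all genes rose and 11.5% fell. E2f1, an activator of S phase genes, rose from 2.00 to 2.77 CPM in controls to 7.25 to 10.4 CPM (log2 fold change 1.87 ± 0.15, adjusted p = 1.71e-09). E2f8, a repressor, fell from 18.4 to 34.0 CPM to 7.88 to 15.2 CPM (-1.13 ± 0.21, adjusted p = 0.000281), without overlap in either gene. In Mdr2-/- mice 2 rose and 5 fell, against 17.9% and 17.0% of all genes. There E2f5 went from 7.70 to 16.1 CPM to 16.6 to 26.5 CPM (0.71 ± 0.25, adjusted p = 0.029) and E2f3 from 8.12 to 10.7 CPM to 4.97 to 7.38 CPM (-0.56 ± 0.18, adjusted p = 0.0189). E2f1 differed between the tumour effects by -2.28 ± 0.20 (edgeR adjusted p = 6.74e-08).

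The cohesin ring holds sister chromatids together until anaphase and also shapes chromatin in resting cells. Most of 9 genes of the ring and its regulators were lower than in wild-type controls, both in tumour-bearing wild-type livers and in Mdr2-/- controls. In tumour-bearing wild-type livers 7 of the 9 genes fell, against 11.5% of all genes, led by Wapl, which releases the ring, from 173 to 266 CPM in controls to 106 to 150 CPM (-0.64 ± 0.13, edgeR adjusted p = 0.000522). In Mdr2-/- controls 7 of 9 were lower than in wild-type controls, against 24.3% of all genes, led by Stag2 (-1.16 ± 0.19, adjusted p = 3.1e-05), and these comparisons share the wild-type controls. In tumour-bearing Mdr2-/- livers Stag2 rose (0.51 ± 0.19, edgeR adjusted p = 0.0407) and Smc1a fell (-0.75 ± 0.20, adjusted p = 0.00613). Of 15 core genes of the anaphase-promoting complex, 4 rose in tumour-bearing wild-type livers, led by Anapc15 (0.63 ± 0.14, edgeR adjusted p = 0.00206), and 1 in Mdr2-/- mice, Anapc10 (0.70 ± 0.19, adjusted p = 0.00915), where 16.9% and 17.9% of all genes rose.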
